A study of Mus musculus with 8 samples.

Results

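The immunity-related GTPases (IRG proteins) are interferon-inducible enzymes, and 10 of their genes were followed here through the cells of mouse islets exposed to inflammatory cytokines. They were Irgm1, Irgm2, Igtp, Iigp1, Tgtp1, Tgtp2, Ifi47, Gm4841, Gm4951 and F830016B08Rik, 10 of the 30406 genes listed in both replicates. The genes were chosen as named members of the family because several of them had stood higher in β-cells when nitric oxide production was blocked, so the comparison of cytokines with and without the blocker in β-cells is given below as values, with no test. Single-cell RNA sequencing had been run on islets of male C57BL6/J mice aged 12 to 16 weeks. A replicate was 1 pool of islets taken from 10 mice, and each of its 4 conditions lasted 18 h. These were no treatment, cytokines (IL-1β at 10 U/mL together with IFN-γ at 150 U/mL), cytokines with 2 mM NMMA (an arginine analog that inhibits nitric oxide synthases), and NMMA alone, with 2 libraries each. All mice were of 1 strain with no engineered allele named, and the islets were treated whole, so every cell class of a library shared 1 dish and 1 pool of mice. In tests within a class, p-values measure the spread between 2 pools. Those tests leave out that each pool was split over the conditions, except in an alternative with the replicate number as a block. Tests between classes, or between β-cells with and without Nos2, had the library as a block.

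IRG proteins are GTP-binding proteins made in large amounts after IFN-γ, and they are known for defending mouse cells against parasites and bacteria that live in vacuoles. Most of them, the effectors (Iigp1, the Tgtp pair and Ifi47 among these genes), load onto the vacuole membrane and break it. A second set, Irgm1, Irgm2 and Igtp, sits on the membranes of the cell's own organelles and keeps the effectors from acting there. IFN-γ acts on these genes through promoter motifs that include the gamma-activated site and the interferon-stimulated response element (ISRE), the latter bound by interferon regulatory factors such as IRF1. In β-cells the same cytokines induce Nos2, the inducible nitric oxide synthase whose product NMMA blocks.

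Start regions of chromosome 11 genes are shown because the same pair of interferon-response motifs recurs in Igtp, Irgm2, Tgtp1 and Tgtp2 at the same spacing. Irgm1, which lacks the pair, is shown beside them, and the region of Ifi47 is not printed. Each line gives 250 bases before to 50 bases after the RefSeq transcription start (GRCm38.p6), 5′ to 3′ on the gene's strand. Capitals mark matches to TTCNNNGAA (gamma-activated site) or GAAANNGAA (the core of the ISRE), both searched on both strands.
Igtp, chr11:58199306-58199605, plus strand: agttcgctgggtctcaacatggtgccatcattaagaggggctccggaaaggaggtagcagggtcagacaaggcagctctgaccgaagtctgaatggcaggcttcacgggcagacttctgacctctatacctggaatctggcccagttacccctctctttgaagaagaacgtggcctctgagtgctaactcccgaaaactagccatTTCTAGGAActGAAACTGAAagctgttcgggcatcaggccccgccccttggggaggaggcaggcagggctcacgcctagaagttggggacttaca
Irgm2, chr11:58214727-58215026, plus strand: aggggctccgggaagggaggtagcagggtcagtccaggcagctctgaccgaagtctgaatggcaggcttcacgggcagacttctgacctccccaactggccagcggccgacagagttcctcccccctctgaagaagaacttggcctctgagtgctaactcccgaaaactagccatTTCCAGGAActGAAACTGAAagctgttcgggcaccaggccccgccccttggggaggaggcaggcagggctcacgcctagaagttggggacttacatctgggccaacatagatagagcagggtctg
Tgtp1, chr11:48992197-48992496, minus strand: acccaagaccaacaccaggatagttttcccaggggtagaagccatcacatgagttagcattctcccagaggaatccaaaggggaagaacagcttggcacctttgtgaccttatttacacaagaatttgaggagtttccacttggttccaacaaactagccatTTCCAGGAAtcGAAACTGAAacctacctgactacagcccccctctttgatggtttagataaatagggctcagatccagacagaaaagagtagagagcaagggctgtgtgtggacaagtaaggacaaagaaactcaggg
Tgtp2, chr11:49064163-49064462, minus strand: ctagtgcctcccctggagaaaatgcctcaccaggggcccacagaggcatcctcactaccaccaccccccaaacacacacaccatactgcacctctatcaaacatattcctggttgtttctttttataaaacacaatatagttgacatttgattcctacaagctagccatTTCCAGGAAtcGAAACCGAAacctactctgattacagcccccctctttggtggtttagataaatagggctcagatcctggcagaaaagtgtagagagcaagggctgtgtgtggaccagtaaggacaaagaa
Irgm1, chr11:48871371-48871670, minus strand: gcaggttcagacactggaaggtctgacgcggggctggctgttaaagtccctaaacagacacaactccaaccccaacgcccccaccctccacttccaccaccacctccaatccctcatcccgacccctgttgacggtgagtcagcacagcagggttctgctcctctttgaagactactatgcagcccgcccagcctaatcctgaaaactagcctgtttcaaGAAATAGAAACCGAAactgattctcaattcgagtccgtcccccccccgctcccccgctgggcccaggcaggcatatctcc
In Igtp, Irgm2, Tgtp1 and Tgtp2 the gamma-activated site was followed by the ISRE core, which began 11 bases downstream. The first base of the gamma-activated site lay at -45, -75, -88 and -81 from the start, respectively. Irgm1 held 2 overlapping ISRE cores at -30 and -24 and no match to the gamma-activated site, and the Ifi47 window held neither, which says only that these letters are absent from it. Over 32851 promoters of the same length, 8.298% held the first motif, 8.56% the second and 1.068% both, against both in 4 of the 6 genes that had a window. The letters around the motifs are much the same in Igtp and Irgm2, and in Tgtp1 and Tgtp2, so these 4 are not independent cases.

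Of the 17426 barcodes in the files, 10876 were kept, with a median of 3983 to 24136 UMIs (unique molecular identifiers, the counted molecules) per kept barcode in a library, and 8149 of them fell into 6 classes named from markers. β-cells made up 6350 of these, α-cells 639, δ-cells 331, macrophages 325, endothelial cells 284 and mesenchymal cells 220. A further 1743 barcodes, most of them shallow, stayed unnamed, and 14 kept barcode sequences occurred in more than 1 library. The unnamed barcodes included a cluster of 150 led by Ppy and Pyy, markers of pancreatic polypeptide cells (PP-cells). Its median depth was 0.558 times that of the library, and PP-cells were not followed as a class. Only 11 and 9 δ-cells were found in the 2 cytokine libraries, and the second was left out of every sum, so that δ-cells with cytokines rest on 1 library.

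The 10 genes lie in clusters on chromosomes 11 and 18 of the mouse genome (build GRCm38), and all are protein-coding. On chromosome 11, Irgm1 (48861968 to 48871683, minus strand) lies near Tgtp1 (48985327 to 48994172, minus), Tgtp2 (49057194 to 49064206, minus) and Ifi47 (49076587 to 49096974, plus). Igtp (58199556 to 58207591, plus) and Irgm2 (58199618 to 58222782, plus) overlap each other and share 162 exon bases. Iigp1 (60376027 to 60392634, plus), Gm4841 (60268305 to 60273272, minus), Gm4951 (60212080 to 60247820, plus) and F830016B08Rik (60293380 to 60303016, plus) form the cluster on chromosome 18. Their coding sequences were mostly 47.96% to 86.28% identical in pairs, with Iigp1 and Gm4951 at the upper end. Tgtp1 and Tgtp2 stood apart at 99.68% identity, and all 503 windows of 98 bases in the last 600 bases of each transcript were found in the other. Reads of these 2 genes cannot be told apart by sequence there, so the level of each and the split between them are uncertain. How such reads were counted was not tested. Ifi47 shares 111 exon bases with Olfr56 on the same strand and Tgtp1 223 with Gm12185, where a read lies in both genes and their counts are also uncertain. Ifi47 also shares 106 exon bases with Gm12188 on the other strand.

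In β-cells, all 10 IRG genes were higher after cytokines than without treatment, in a test across 12776 genes in which 23.7% of genes were called higher. Values of single genes are counts per 1000000 (CPM) over the summed UMIs of a class in a library, scaled for composition. The IRG total is the CPM of the 10 genes added up, without that scaling, and fold changes are ratios of pooled counts with their 95% counting interval, which covers counting error only. Calls come from edgeR's quasi-likelihood test on the sums, with Benjamini-Hochberg adjustment over all genes tested and a threshold of 0.05. In untreated β-cells the IRG total was 17.0 and 16.4 CPM, and with cytokines 840 and 787.

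Of the regulators, Irgm1 stood at 11.2 and 10.7 CPM in the untreated libraries and at 236 and 196 with cytokines, a 19.998-fold difference (18.4 to 21.8). The adjusted p was 7.0e-07 by edgeR's quasi-likelihood test. Irgm1, which is also needed for normal autophagy and mitochondrial upkeep, gave 67.45% and 69.53% of all IRG UMIs in untreated β-cells and 25.12% and 22.26% with cytokines. Igtp rose from 3.09 and 2.95 CPM to 268 and 179, a 77.3-fold difference (66.1 to 91.0). Irgm2 rose from 1.92 and 1.38 CPM to 55.6 and 59.7, a 32.6-fold difference (26.5 to 40.6). These 3 regulators were thus the only ones of the 10 genes above 1 CPM in untreated β-cells, and their cytokine libraries did not overlap the untreated ones.

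Among the effectors, Iigp1, whose product was the first of the family to have its structure solved, went from 0.22 and 0.30 CPM to 250 and 327 with cytokines. The ratio was 1124-fold (657 to 2112), and it rests on 13 untreated UMIs. Ifi47 went from 0.11 and 0 CPM to 39.1 and 29.0, a 466-fold difference (181 to 1711). Tgtp1 had 1 UMI in the untreated libraries and 8.62 and 15.2 CPM with cytokines. Tgtp2 had no UMI in either untreated library and 4.75 and 7.18 CPM with cytokines, at least 98.6-fold higher when the untreated group is set at 3 counts. The less studied chromosome 18 genes were at most at 2 UMIs in untreated β-cells. Gm4841 then reached 12.02 and 14.4 CPM (at least 225-fold higher), Gm4951 15.1 and 13.3, and F830016B08Rik 51.3 and 38.3. Every effector was therefore nearly absent before treatment, and the median ratio over the 10 genes was 346-fold with 2 of them at their bound, while the median log2 change of all genes tested was 0.00.

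Without cytokines NMMA gave no call. Irgm1 stood at 10.8 and 11.3 CPM, Igtp at 2.72 and 3.93 and Irgm2 at 1.54 and 1.69, and the other 7 genes were at or below 0.26 CPM. By edgeR's quasi-likelihood test 0 of 12776 genes were called higher (0%) and 915 had an unadjusted p under 0.05, and DESeq2 called 5 higher and 8 lower. Of the 10 IRG genes 0 had an unadjusted p under 0.05 and DESeq2 called 0. The log2 difference from untreated was 0.01 ± 0.15 (SE) for Irgm1, 0.13 ± 0.25 for Igtp and -0.08 ± 0.22 for Irgm2.

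**Figure D1:**
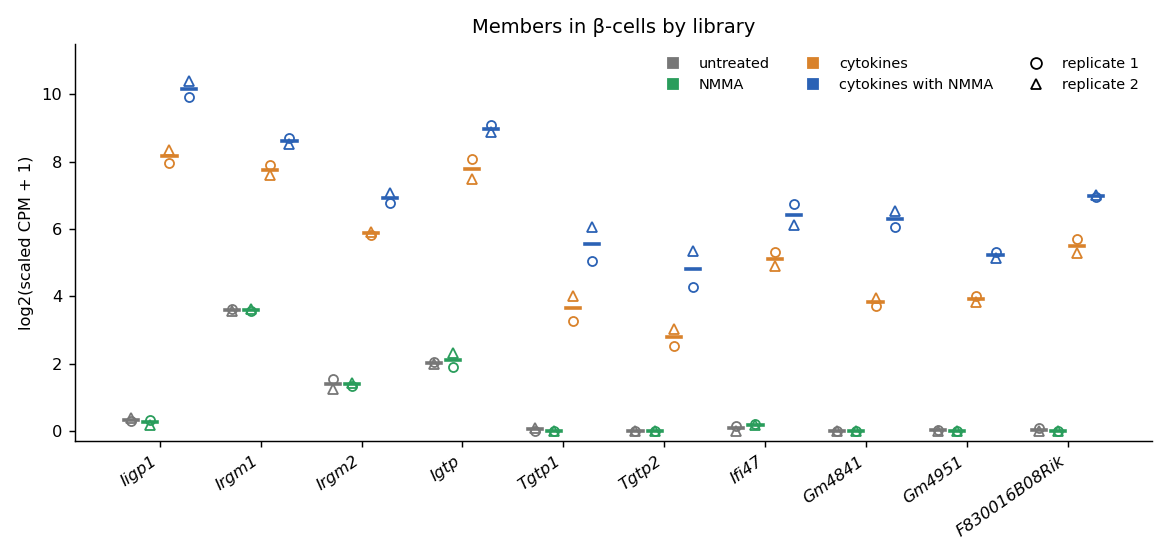
IRG genes in β-cells. Each point is 1 library (circle, replicate 1; triangle, replicate 2), the bar is the mean of the 2 libraries, and the y axis is log2(scaled CPM + 1). Untreated and NMMA libraries lie together near the bottom, with Irgm1, Irgm2 and Igtp above the rest, and the libraries with cytokines and NMMA lie above those with cytokines for all 10 genes.

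With NMMA added to the cytokines, all 10 genes stood higher than with cytokines alone in both libraries of β-cells, where 31.6% of all genes did so. This is the comparison through which the family was chosen, and it is described only. Iigp1 stood at 968 and 1361 CPM, 4.04-fold over cytokines alone (3.95 to 4.12). Gm4841 stood at 65.1 and 91.2 CPM, which at 5.85-fold (5.32 to 6.45) was the largest ratio of the 10. Tgtp1 reached 32.3 and 66.3 CPM and Tgtp2 18.5 and 39.4, ratios of 4.14 and 4.74. The effector and chromosome 18 genes with middling ratios were Ifi47 at 105 and 68.5 CPM (2.56-fold), Gm4951 at 38.7 and 34.3 (2.56-fold) and F830016B08Rik at 124 and 129 (2.70-fold). The 3 regulators had the smallest ratios. Irgm1 stood at 420 and 365 CPM, 1.80-fold (1.75 to 1.85), Irgm2 at 108 and 134, 2.07-fold, and Igtp at 540 and 469, 2.17-fold. The IRG total was 2473 and 2892 CPM. The makeup of the family moved as well, with Iigp1 giving 26.61% and 37.19% of IRG UMIs with cytokines and 40.01% and 49.36% with NMMA added. Against untreated cells, with the same treated libraries and so also only described, the ratios ran from 36.0-fold for Irgm1 to 4538-fold for Iigp1. Different clusters held most β-cells of the 2 conditions, in each replicate 1 cluster of mostly cytokine cells and 1 of mostly NMMA cells. The 103 NMMA-treated cells that fell into the mostly cytokine cluster had an IRG total of 1752 CPM in replicate 1 and the 103 such cells one of 1877 in replicate 2, above the 813 and 857 of the cytokine cells in the same clusters. In the mostly NMMA clusters, the 52 and 13 cells from the cytokine libraries stood at 2201 and 2252 CPM, against 2755 and 3690 in the NMMA cells there. These clusters were built without the 10 genes, but other genes of the cytokine response were not left out. Nos2 was among the leading genes of both mostly NMMA clusters, so IRG totals by cluster are not independent of the clustering.

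The same UMIs can be counted per cell, again as a description, since the genes were chosen through them. To compare shares, each β-cell was thinned to 10000 UMIs, leaving out shallower cells. Of 1582 and 513 untreated cells, 0 had UMIs of 5 or more IRG genes, which allows a share of up to 0.19% and 0.585%. With cytokines the share was 22.5% (95% exact interval 20.03 to 25.04, 1104 cells) and 19.9% (16.4 to 23.8, 477 cells). With NMMA it was 65.7% (61.8 to 69.4, 624 cells) and 65.9% (60.8 to 70.8, 358 cells), and without thinning the shares were 47.4% and 48.5% with cytokines and 80.0% and 71.5% with NMMA. The median cell held 0 of the genes untreated, 3 in both cytokine libraries, and 5 and 6 with NMMA. Free RNA can give UMIs in cells that do not express a gene, and its part was not tested. The untreated share with any IRG gene, 15.2% and 14.8%, came mainly from Irgm1.

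Single genes differed in their spread over the β-cells, by measures that depend on the mean count. With cytokines the mean at 10000 UMIs was 0.035 and 0.057 UMIs per cell for Tgtp2 and 2.28 and 3.205 for Iigp1. With cytokines, Igtp was detected in 73.46% and 60.38% of cells at 10000 UMIs and Irgm1 in 73.73% and 68.97%. Iigp1 was found in 59.78% and 60.38% of cells, with up to 43 and 56 UMIs in a single cell. F830016B08Rik, by contrast, was found in 17.21% and 16.98% of cells, and the 10% of cells with the most UMIs held 84.48% and 81.25% of its UMIs. Tgtp1, Tgtp2, Gm4841 and Gm4951 were found in fewer cells still, 3.08% to 11.74%. Their top 10% of cells held 88.24% to 100% of their UMIs, a share that is 100% wherever under 10% of cells had the gene. The top 10% held 35.6% and 36% for Irgm1, 49.66% and 55.37% for Irgm2 and 50.26% and 54.61% for Iigp1. The variance of F830016B08Rik counts was 6.96 and 5.21 times their mean, and that of Iigp1 counts 6.52 and 11.6 times. It was 2.78 and 2.37 times for Irgm1 and 1.22 and 1.76 times for the scarce Tgtp2. With NMMA the ratio was 9.05 and 5.72 for F830016B08Rik, 9.48 and 12.7 for Iigp1 and 7.39 and 4.31 for Gm4841. Iigp1 was then found in 86.54% and 83.8% of cells, and its top 10% held 32.53% and 30.29% of its UMIs, against 73.09% and 62.28% for F830016B08Rik. F830016B08Rik, Tgtp1, Tgtp2, Gm4841 and Gm4951 were thus detected in a minority of β-cells at this depth in both conditions, while Iigp1 was present in most cells at very different levels. Whether the low shares of the scarcer genes go beyond what their low counts give was not tested.

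β-cells of the clusters led by heat shock genes, the chaperones made under protein stress, held few IRG UMIs. They were 5.89% and 17.9% of the β-cells with cytokines and 7.92% and 15.7% with NMMA, and the remaining β-cells are called other β-cells here. With cytokines their IRG total was 147 and 97.1 CPM, against 876 and 892 in other β-cells. With NMMA it was 202 and 89.4, against 2607 and 3202. At 10000 UMIs, 0 of 60 and 0 of 77 heat shock-led cells had 5 or more IRG genes with cytokines, which allows up to 5% and 3.90%, against 23.8% in each replicate of other β-cells. With NMMA the shares were 2 of 47 (4.26%) and 0 of 51 (up to 5.88%), against 70.7% and 76.9%. Both groups of cells had low IRG levels without cytokines, 12.2 and 5.98 CPM in heat shock-led cells and 17.2 and 17.8 in others. The 2 groups come from the same libraries and were defined by clustering, so no test was made, and the heat shock-led cells were shallower (medians of 21623 and 16243 UMIs with cytokines, against 24849 and 28892).

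**Figure D2:**
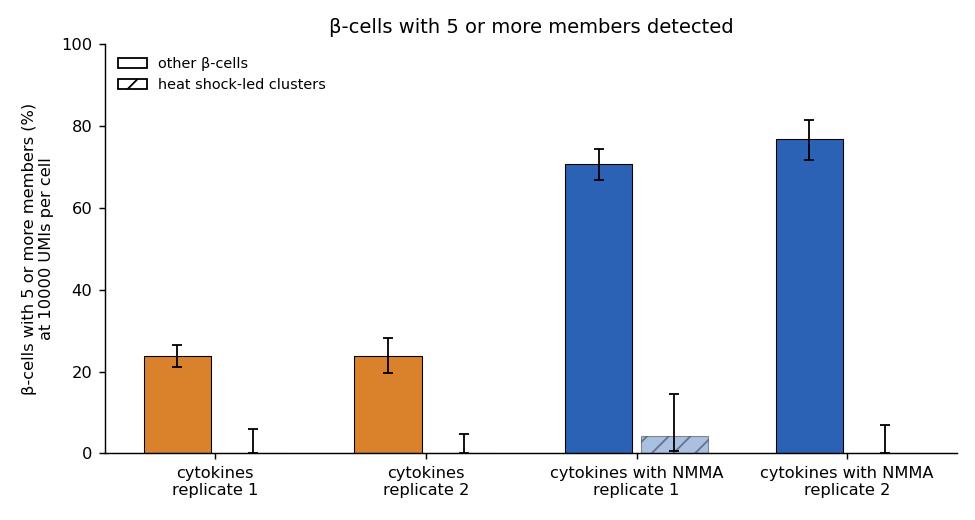
β-cells with UMIs of 5 or more of the 10 IRG genes, at 10000 UMIs per cell. Bars are shares of cells in each library with cytokines, plain for other β-cells and hatched for heat shock-led clusters, and error bars are 95% exact binomial intervals, which cover counting error only. The plain bars stand at 23.8% in both replicates with cytokines and at 70.7% and 76.9% with NMMA, and all hatched bars lie under 5%.

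Within a library, β-cells with Nos2 held more IRG UMIs than β-cells without it. Cells with at least 1 Nos2 UMI at 10000 UMIs made up 48.5% and 44.4% of β-cells with cytokines and 65.9% and 57.5% with NMMA. Summed over cells of each kind and tested with the library as a block, 9 of the 10 genes were higher with Nos2, where 5.09% of the 9166 genes tested were. Gm4841 had the largest difference, log2 1.15 ± 0.21 (SE), adjusted p = 0.0053 by edgeR's quasi-likelihood test. Tgtp2 (0.93 ± 0.25), F830016B08Rik (0.88 ± 0.10), Tgtp1 (0.86 ± 0.15) and Gm4951 (0.83 ± 0.16) followed, and Ifi47 (0.66 ± 0.12), Iigp1 (0.51 ± 0.09), Igtp (0.46 ± 0.08) and Irgm2 (0.39 ± 0.09) differed less. Irgm1 did not pass (0.26 ± 0.08, adjusted p = 0.052 by edgeR). DESeq2 called 6, and without cytokines with NMMA replicate 1 edgeR lost Tgtp2 and Gm4951, while Irgm1 passed without cytokines replicate 1. Heat shock-led cells made up 0.187% to 1.89% of the cells with Nos2 and 10.4% to 31.6% of those without, over the 4 libraries. With them left out, an alternative added after the data had been seen, 6 genes were called, with Iigp1 at 0.26 and Igtp at 0.23. F830016B08Rik (0.64), Tgtp1 (0.62), Gm4951 (0.59) and Ifi47 (0.45) were the others, and Gm4841 (0.90), Tgtp2 (0.69) and Irgm2 (0.19) no longer passed.

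**Figure D3:**
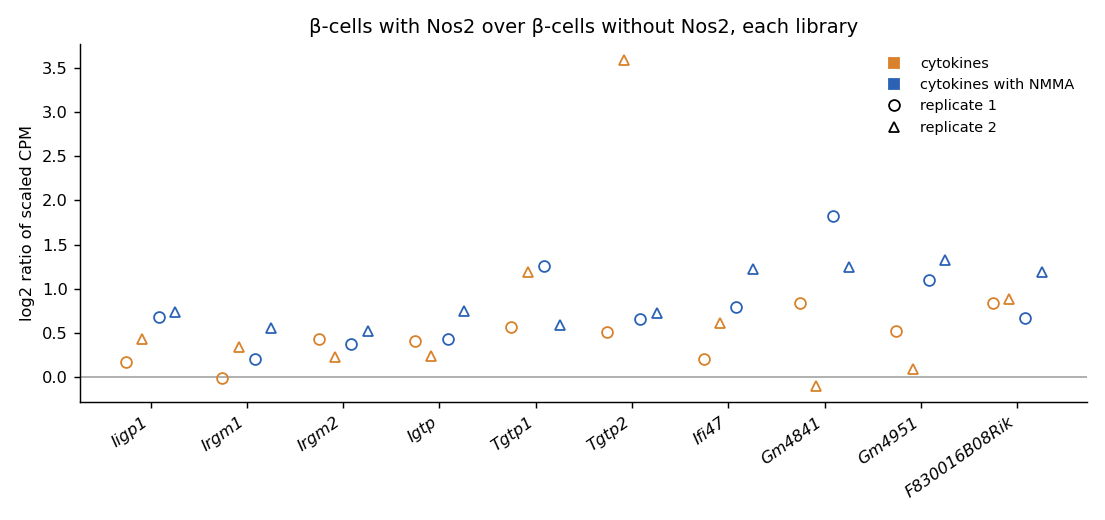
β-cells with Nos2 against β-cells without Nos2. Each point is the log2 ratio of scaled CPM within 1 library with cytokines (orange) or cytokines and NMMA (blue), at 10000 UMIs per cell. All 20 points of the NMMA libraries lie above 0, and 1 gene in each cytokine library lies just below it, Irgm1 at -0.01 and Gm4841 at -0.10.

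In α-cells, which make glucagon, 9 of the 10 IRG genes were called higher with cytokines than untreated, where 13.8% of the 9655 genes tested were. Irgm1 rose from 21.5 and 9.60 CPM to 256 and 308, 19.9-fold (14.8 to 27.5), and Igtp from 14.1 and 7.999 to 306 and 205, 22.6-fold (15.9 to 33.1). Irgm2 rose from 7.42 and 9.07 CPM to 46.0 and 63.0, 6.84-fold (4.43 to 10.9). Iigp1 rose from 1.48 and 0 CPM to 428 and 341, and Ifi47 from 2.23 and 0.53 to 65.4 and 74.5. Tgtp1, Tgtp2, Gm4841, Gm4951 and F830016B08Rik had no UMI in untreated α-cells. F830016B08Rik stood at 104 and 4.44 CPM with cytokines and was not called (adjusted p = 0.31 by edgeR), and 50 of its 59 UMIs in replicate 1 came from 1 of 45 cells. β-cell RNA moved with this comparison. Clusters of α- or δ-like cells whose hormone UMIs were mostly insulin had been left out. They held 75 and 56 barcodes untreated and 1 and 0 with cytokines. The 8 β-cell markers, of which at most 1 was at 0 in a library, summed to 9032 and 9501 CPM in untreated α-cells and to 40113 and 47730 with cytokines, against 397320 and 405800 in β-cells with cytokines, and their part in the result was not tested. Without either cytokine library F830016B08Rik was called, and Tgtp1 and Tgtp2 no longer were (adjusted p = 0.13 to 0.20 by edgeR).

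In α-cells, a comparison that did not enter the choice of genes, NMMA added to the cytokines gave 6 of the 10 genes called higher than with cytokines alone, where 4.52% of genes were. Ifi47 rose most, from 65.4 and 74.5 CPM to 271 and 263, log2 1.92 ± 0.28, adjusted p = 0.00061 by edgeR. Gm4841 rose from 7.07 and 7.10 CPM to 18.8 and 35.1 (log2 1.92 ± 0.48), on 4 and 8 UMIs with cytokines. Iigp1 went from 428 and 341 CPM to 869 and 1530 (1.65 ± 0.37, adjusted p = 0.031 by edgeR). Gm4951 (1.30 ± 0.30), Irgm2 (1.10 ± 0.24) and Igtp (0.94 ± 0.23) were the others called. The remaining genes did not pass, with log2 differences of 0.67 ± 0.27 for Irgm1 (256 and 308 CPM against 456 and 445), 0.75 ± 0.38 for Tgtp1, 1.25 ± 0.45 for Tgtp2 and -0.47 ± 1.67 for F830016B08Rik. Apart from F830016B08Rik, every gene was higher in both NMMA libraries than in both cytokine libraries, as were 28.1% of all genes tested. The IRG total of all 10 genes went from 947 and 915 CPM to 2524 and 3237. That total is not scaled for composition, and without scaling the median log2 difference of all genes tested was 0.41. With the replicate number as a block, 9 of 10 were called, and with DESeq2 4. Without cytokines replicate 1, the library with the single F830016B08Rik-rich cell, F830016B08Rik was higher with NMMA (log2 2.90, adjusted p = 0.00645 by edgeR). It was lower without cytokines replicate 2 (log2 -1.61, adjusted p = 0.00454 by edgeR). The number of genes called fell to 2 without cytokines with NMMA replicate 2 and to 3 without cytokines replicate 2, 1 of them lower. It was 8 without cytokines with NMMA replicate 1 and 5 without cytokines replicate 1. Ifi47 alone passed with each of the 8 libraries left out in turn. α-cells in the cytokine libraries were few, 45 and 71. The β-cell markers summed to 27068 and 60463 CPM with NMMA added, below the cytokine library in replicate 1 and above it in replicate 2. The 7 α-cell markers summed to 222170 and 139080 CPM with cytokines and to 152550 and 85768 with NMMA added. For the PP-cell markers Ppy and Pyy the sums were 57725 and 53244 CPM with cytokines and 42998 and 89222 with NMMA added. The compared sums thus differed in makeup, and the part of this in the result was not tested.

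**Figure D4:**
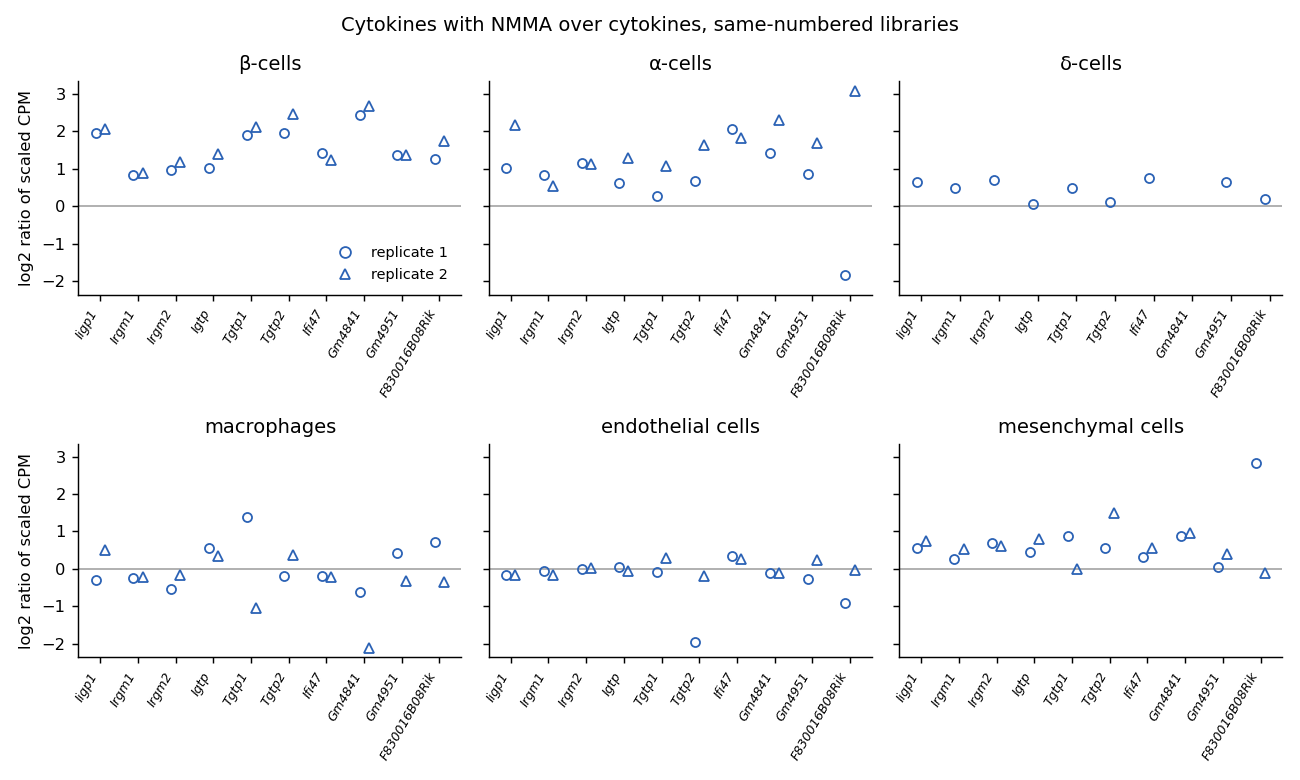
Log2 ratio of scaled CPM, cytokines with NMMA over cytokines, for each IRG gene in 6 cell classes. Circles are replicate 1 and triangles replicate 2, and a point is missing where either library had no UMI or under 10 cells (δ-cells in replicate 2). In β-cells the ratios run from 0.83 to 2.67 with none below 0, in α-cells 1 of 20 is below 0, and in macrophages and endothelial cells they scatter around 0.

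In δ-cells, the somatostatin-producing cells, 6 of 10 genes were called higher with cytokines, where 3.77% of the 9170 genes tested were, on 11 cells of 1 cytokine library. That library has no spread of its own, and the test assumes that it varies like the libraries of the other conditions. The makeup of the sums moved too. The 6 δ-cell markers summed to 81473 and 59178 CPM untreated and to 39800 with cytokines. The 8 β-cell markers summed to 36821 and 41220 CPM and then 57778. The PP-cell markers Ppy and Pyy, at 85110 and 125230 CPM and then 48665, stood above the δ-cell markers in each of these libraries. The part of this makeup in the result was not tested. Irgm1 stood at 30.4 and 19.3 CPM untreated and 507 with cytokines, Igtp at 5.24 and 1.61 and then 546, and Iigp1 at 0 and then 520, at least 273-fold higher. Of the 11 cells in that library, the cell with the most UMIs of a gene held 48.75% for Iigp1, 36.9% for Igtp and 34.62% for Ifi47. Gm4951, Ifi47 and Irgm2 were the other genes called, and Tgtp1, Tgtp2 and F830016B08Rik joined them with the replicate number as a block or without either library with cytokines and NMMA. With NMMA the levels were 712 and 644 CPM for Irgm1, 571 and 624 for Igtp and 815 and 1627 for Iigp1. Against cytokines alone, all 10 genes stood higher in both NMMA libraries, as did 44.9% of all genes tested, but edgeR called 0 (0.196% of genes were called higher), with 2 at an unadjusted p under 0.05, and DESeq2 called 0. With 1 cytokine library of 11 cells, no difference in an IRG gene was detected in δ-cells.

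In macrophages, the resident phagocytes of the islet, 8 genes passed the filter on low counts and all 8 were called higher with cytokines, where 3.78% of the 5159 genes tested were. Ifi47 went from 8.33 and 26.9 CPM to 509 and 374, 21.8-fold (14.2 to 35.2), Irgm1 from 16.7 and 38.3 to 611 and 464, 17.6-fold (12.4 to 26.0), and Iigp1 from 0 in both untreated libraries to 897 and 739, at least 294-fold higher. Without untreated replicate 2 Tgtp2 was not called (adjusted p = 0.062 by edgeR). Tgtp1 and Gm4841 did not pass the filter and had at most 15 UMIs in a library. Adding NMMA gave 0 calls among the 8 (0.116% of genes were called higher), and 0 had an unadjusted p under 0.05 in edgeR's or in DESeq2's test. Ifi47 stood at 447 and 320 CPM, Irgm1 at 515 and 399, and Iigp1 at 736 and 1055, values that overlap those without NMMA for Iigp1, Irgm1 and Ifi47. The log2 differences were -0.21 ± 0.34 for Ifi47, -0.24 ± 0.41 for Irgm1 and 0.13 ± 0.26 for Iigp1.

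Endothelial cells, which line the islet capillaries, reached the highest IRG total of the 6 classes, 7936 and 8628 CPM with cytokines, from 50.1 and 75.7 untreated. In them 9 genes were called higher with cytokines, where 4.58% of the 7505 genes tested were, and Tgtp1 missed the threshold (adjusted p = 0.095 by edgeR) but passed with the replicate block. Tgtp2 lost its call without any 1 of the untreated, NMMA or cytokine libraries (adjusted p = 0.067 to 0.25 by edgeR), and Gm4841 without any 1 of the untreated or NMMA libraries (0.13 to 0.14), and Tgtp1 passed without either library with cytokines and NMMA. Iigp1 went from 3.85 and 11.3 CPM to 4252 and 4900, 573-fold (311 to 1197), and gave 50.35% and 50.86% of the IRG UMIs. Igtp went from 1.93 and 2.81 CPM to 1320 and 1376, on 3 untreated UMIs. With NMMA added Iigp1 stood at 3763 and 4406 CPM and Igtp at 1372 and 1328, and 0 of the 10 genes were called, as were 0 of all genes (0%). Of the 10 genes 0 had an unadjusted p under 0.05 by edgeR and DESeq2 called 0 of them. The IRG total was 7054 and 7950. These sums held 15 and 23 cells with cytokines and 14 and 34 with NMMA added. In cytokines replicate 1, 1 cell held 44.04% of the F830016B08Rik UMIs, and 1 cell held 35% of the Tgtp2 UMIs. Macrophage markers summed to 1440 and 15.8 CPM with NMMA added, against 4.66 and 2.57 with cytokines, and their part was not tested.

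In mesenchymal cells the IRG total went from 53.8 and 47.6 CPM untreated to 3370 and 3169 with cytokines and 5605 and 4849 with NMMA. With cytokines 9 genes were called higher, where 1.5% of the 5607 genes tested were, and Tgtp1 missed the threshold (adjusted p = 0.089 by edgeR). Between 6 and 10 were called as single libraries were left out, with 6 without untreated replicate 1 or 2. The replicate block added Tgtp1 and ended the call of F830016B08Rik. Tgtp2, F830016B08Rik, Gm4841 and Irgm2 were those whose call was lost with at least 1 library left out. Iigp1 went from 10.4 and 2.43 CPM to 1799 and 1925, and then to 2647 and 3244 with NMMA. Irgm1 went from 34.6 and 31.6 CPM to 392 and 361, and then to 473 and 523. All 10 had a ratio above 1 between the pooled NMMA and cytokine libraries (1.18 to 2.27), and 7 did not overlap (13% of all genes stood higher without overlap), yet 0 were called, as were 0 of all genes (0%). By edgeR 0 of the 10 had an unadjusted p under 0.05, and DESeq2 called 0. These sums held 13 to 26 cells per library.

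**Figure D5:**
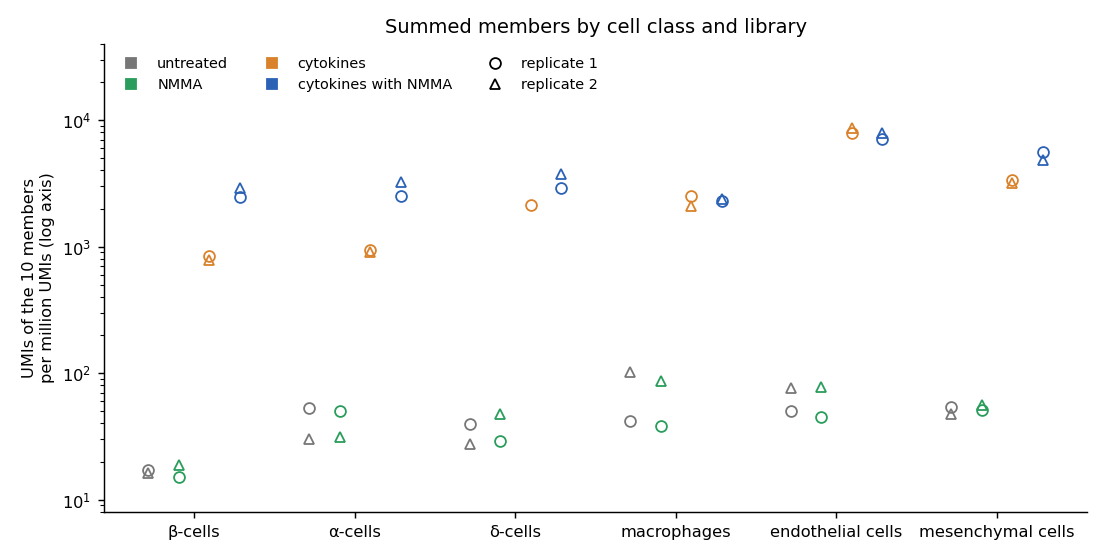
IRG total (CPM of the 10 genes added up) by cell class and library, on a log axis. Circles are replicate 1 and triangles replicate 2. NMMA lies with the untreated libraries in every class, and the libraries with cytokines and NMMA lie above those with cytokines in β-cells (2473 and 2892 against 840 and 787), α-cells, mesenchymal cells and δ-cells (1 cytokine library), while the 2 conditions overlap in macrophages and endothelial cells.

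Whether the NMMA effect itself differed between classes was tested for α-cells against macrophages and endothelial cells, a pair of classes picked after the data had been seen. δ- and mesenchymal cells, which also gave no call, were not tested against α-cells. The log2 effect of NMMA was larger in α-cells than in endothelial cells for 7 of 10 genes (1.29% of the 9846 genes tested were), among them Gm4841 (difference 2.25 ± 0.48), Tgtp2 (1.97 ± 0.41), Iigp1 (1.86 ± 0.27) and Ifi47 (1.69 ± 0.28). Against macrophages it was larger for 5 of 10 (1.09% of 9421), Gm4841 (3.73 ± 0.94), Ifi47 (2.17 ± 0.31), Iigp1 (1.54 ± 0.27), Irgm2 (1.54 ± 0.42) and Gm4951 (1.38 ± 0.42). DESeq2 gave an adjusted p for 6 and 3 of the genes, and called 2 and 1 of them. Against macrophages 2 were called without either of the libraries with cytokines and NMMA. Against endothelial cells 4 were called without cytokines replicate 2, 1 of them the other way (F830016B08Rik, -1.18). Ifi47 and Iigp1 passed in both tests with each of the 4 cytokine-treated libraries left out in turn. β-cells were not entered, because their effect had chosen the genes.

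The classes also differed before treatment. Macrophages had higher untreated levels than β-cells for 5 genes, where 19.1% of the 12809 genes tested were higher. The difference was largest for Ifi47 (8.33 and 26.9 CPM against 0.11 and 0, log2 7.02 ± 0.67), with Igtp at 2.10 ± 0.41, Irgm2 at 1.83 ± 0.63 and Irgm1 at 0.86 ± 0.32, and with Gm4951 resting on 3 macrophage UMIs. Endothelial cells were higher for 4 genes (22.2% of 13267), among them Ifi47 (11.6 and 9.85 CPM), Iigp1 (3.85 and 11.3) and Irgm2, and Tgtp2 on 3 UMIs. α-cells were higher for Ifi47, Irgm2 and Igtp (13.5% of 12803), with log2 differences of 3.88 ± 1.10, 1.87 ± 0.36 and 1.39 ± 0.28. Mesenchymal cells were higher for Iigp1 (14.6% of 13189) and δ-cells for 0 (9.67% of 13546) by edgeR, with 2 at an unadjusted p under 0.05, and by DESeq2. Several of these differences rest on single libraries. Without untreated replicate 2, macrophages were higher for Ifi47 only, with Irgm1 at 0.10, and endothelial cells for 2 genes, with Irgm2 at -0.07. Without untreated replicate 1, α-cells were higher for Irgm2 only and mesenchymal cells for 0. Ifi47 in untreated α-cells rests on 3 and 1 UMIs. It was thus close to absent in untreated β-cells and higher in untreated macrophages and endothelial cells, with each library left out in turn.

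The change with cytokines differed from that in β-cells for some genes. Igtp rose less in α-cells (log2 difference -1.65 ± 0.32) and in macrophages (-1.97 ± 0.45) and more in endothelial cells (3.07 ± 0.60). Ifi47 rose less in macrophages (-3.68 ± 0.70) and in endothelial cells (-2.92 ± 0.72), and Irgm2 less in α-cells (-2.38 ± 0.40). In these tests 2.11% of genes rose less in α-cells than in β-cells, 3.06% in macrophages and 3.67% in endothelial cells, and 2.67% rose more in endothelial cells. Without untreated replicate 2, 0 passed in macrophages and only Igtp in endothelial cells, and without untreated replicate 1 only Irgm2 in α-cells, where Ifi47 joined without cytokines replicate 2 or either NMMA library (-3.61 to -3.23). In δ- and mesenchymal cells edgeR called 0 of 10, with 0 at an unadjusted p under 0.05, and DESeq2 called 0. Of all genes 0.273% rose more and 0.849% less in δ-cells than in β-cells, and 1.13% and 1.03% in mesenchymal cells. Irgm1 rose 11.3- to 28.5-fold over the classes, and its difference from β-cells was not called in any of them (log2 -0.66 ± 0.52 to 0.69 ± 0.33).

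Genes that act with the family moved as follows. Of 16 genes of IFN-γ signaling, 15 were higher in β-cells with cytokines (23.7% of all genes), led by Irf8 (log2 6.83 ± 0.51), a transcription factor, and Ciita (5.65 ± 0.82) and Nlrc5 (5.40 ± 0.29), the transactivators of MHC class II and class I genes. Their median was log2 2.46. All 9 tested of the 11 guanylate binding proteins, larger GTPases that act at the same vacuoles, were higher, led by Gbp4 (10.3 ± 0.33), Gbp10 (10.0 ± 0.53) and Gbp2 (9.07 ± 0.34), with a median of 8.36. Of 12 genes of the ubiquitin-like conjugation system of autophagy, through which effectors reach vacuoles, 8 were higher by smaller amounts, with Sqstm1 (2.23 ± 0.20), Atg3 (1.27 ± 0.14) and Gabarapl1 (1.01 ± 0.12) at the top. Nos2 rose from 1 and 0 UMIs to 5045 and 2412 (193 and 162 CPM), while Slc7a2, an arginine transporter, fell by 1.51 ± 0.13 (22.4% of all genes were called lower) and Gch1 rose by 0.42 ± 0.14. Other genes of the family on chromosome 11, 9930111J21Rik2 (10.8 ± 0.30), 9930111J21Rik1 (7.75 ± 1.08) and Gm12185 (6.38 ± 0.46), also rose, whereas Irgq, a distant relative that is not known as interferon-inducible, fell (-1.05 ± 0.15).

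With NMMA in α-cells fewer genes of these lists were called. Of the 9 guanylate binding proteins 1 was called higher (Gbp10, 1.004 ± 0.28, where 4.52% of all genes were), and Gbp4 (0.18 ± 0.49) and Gbp2 (0.21 ± 0.41) did not pass. Of the autophagy genes 0 were higher and 4 lower (6.14% of all genes were called lower), including Sqstm1 (-2.36 ± 0.24), Gabarapl1 (-1.39 ± 0.20) and Atg3 (-1.25 ± 0.22). Of the 15 IFN-γ signaling genes tested 3 were higher and 1 lower. In the Nos2 split of β-cells, by contrast, all 9 guanylate binding proteins and 8 of 15 IFN-γ signaling genes were higher with Nos2 (background 5.09%).

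Among the genes whose level was most like the mean of the IRG genes over 47 sums of a class in a library, out of 8759 genes compared, were Gbp5 (Pearson r = 0.978), Gbp4 (0.968), Gbp7 (0.967), Tap1 (0.966), Gbp2 (0.963), Irf1 (0.958), Gbp3 (0.957), Serpina3f (0.955) and Olfr56 (0.954). These sums share libraries, and the correlations are a description. Within the 23 sums with cytokines, Tap1, a peptide transporter of antigen presentation, was at 0.898, Gbp7 at 0.847 and Serpina3f at 0.280. Olfr56 shares exon bases with Ifi47. Each IRG gene followed the mean of the other 9 with r between 0.919 (Gm4841) and 0.976 (Iigp1) over all sums, and between 0.607 (Tgtp1) and 0.959 (Iigp1) within the sums with cytokines.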

How the data were processed

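Islet cells of 8 libraries, 2 for each of 4 conditions, were profiled by 3′ droplet sequencing (10x Genomics). The authors aligned reads with Cell Ranger 3.0.0 (replicate 1) or 6.0.0 (replicate 2), with mm10 named in the submitters' processing notes, and deposited raw UMI counts per gene and barcode, with no normalization. The files list 31053 and 32285 genes, of which 30406 are shared and were used. The labels name the v2 kit and the study's methods v3.

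Barcodes with over 200 and under 5500 (replicate 1) or 6500 (replicate 2) genes and under 10% mitochondrial UMIs were kept, 62.4% of them. The highly variable genes (2000, the 10 IRG genes left out) gave 30 principal components and Leiden clusters (scanpy 1.11.5, leidenalg 0.10.2, resolution 1), named from marker lists. The α- and δ-cell clusters were clustered once more, and resulting clusters with mostly insulin among their hormone UMIs were left out. These held 270 barcodes, 75 and 56 untreated, 14 and 123 with NMMA alone, 1 and 0 with cytokines, and 0 and 1 with cytokines and NMMA. Doublets (200 called, 1.84%) were kept and removed in an alternative. UMIs were summed per class and library with at least 10 cells, since cells are not replicates. Sums were tested with edgeR 4.0.16 (TMM, filterByExpr, robust quasi-likelihood fit, all conditions in 1 fit, R 4.3.3), and adjusted over all genes tested. Genes with no UMI in the untreated cells of a class could pass its filter on low counts only through treated libraries. SE is the log2 difference over the root of F. UMIs were thinned to 10000 per β-cell for shares, in 1 random draw (the Nos2 split used a draw of its own), with 95% exact intervals and a floor of 3 counts. DESeq2 1.42.0 was an alternative.

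The IRG genes, gene lists and tests were chosen with earlier results of these data known. The lists held other family genes, IFN-γ signaling, guanylate binding proteins, ubiquitin-like conjugation and nitric oxide synthesis, from each of which the 3 called genes with the largest change in β-cells were to be named, and Nos2, beside the 10 genes most like the IRG mean with at least 10 CPM, 1 of which is not reported here. On simulated 2-fold changes in 200 genes, the cytokine test recovered 41.5% for β-cells, 9.5% for α-, 0.5% for δ-cells, 2% for macrophages and 0% for endothelial and for mesenchymal cells, on 12776, 9655, 9170, 5159, 7505 and 5607 genes. Same-numbered libraries came from the same pool of mice and their sums deviated together, with an r over pairs that ran from 0.607 to 0.701 for β-cells, from 0.268 to 0.448 for α-, from 0.288 to 0.351 for δ-, from 0.233 to 0.404 for endothelial and from 0.0703 to 0.406 for mesenchymal cells, and from 0.342 to 0.460 for macrophages. Positions are from GENCODE M21, and promoter windows from RefSeq.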

Additional observations from a re-analysis of the deposited data

Results flagged for a closer look

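The change with cytokines differed from that in β-cells, by an interaction term in edgeR's quasi-likelihood test, for 6 pairs of gene and class. The log2 difference was -1.65 for Igtp and -2.38 for Irgm2 in α-cells, -3.68 for Ifi47 and -1.97 for Igtp in macrophages, and -2.92 for Ifi47 and 3.07 for Igtp in endothelial cells. The effect of NMMA on top of cytokines was larger in α-cells than in macrophages for Gm4841 (3.73), Ifi47 (2.17), Irgm2 (1.54), Iigp1 (1.54) and Gm4951 (1.38), and larger in α-cells than in endothelial cells for Gm4841 (2.25), Tgtp2 (1.97), Iigp1 (1.86), Ifi47 (1.69), Gm4951 (1.39), Irgm2 (1.21) and Igtp (1.05). The tests of α-cells against these 2 classes were added after the data had been seen.

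Barcodes that stayed unnamed, most of them shallow (medians of 588 to 6296 UMIs over the libraries), were in no comparison and yet held IRG UMIs with cytokines. Their total over the 10 genes was 649 and 604 CPM with cytokines and 1402 and 2294 with NMMA added, against 5.82 and 19.9 untreated. The total in β-cells of the same libraries was 840 and 787, 2473 and 2892, and 17.0 and 16.4.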

How the results depend on the processing

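With cytokines against untreated cells, the number of IRG genes called in each of the 6 classes stayed within 1.5 times its value under each alternative that gave a result, and all 10 were called in β-cells under each of them. These alternatives were relative log expression size factors, total UMIs in place of size factors, no filter on low counts, DESeq2, doublets removed, at least 20 cells per sum, the replicate block and leaving out each library in turn. Sums of at least 20 cells left no δ-cells with cytokines. With the replicate number as a block, 9 genes passed for NMMA on top of cytokines in α-cells in place of 6. It added Tgtp1, Tgtp2 and F830016B08Rik in δ-cells and Tgtp1 in endothelial and mesenchymal cells with cytokines, and ended the call of F830016B08Rik in mesenchymal cells, and changed no other call in the tests within a class. Of the counts that moved further, NMMA on top of cytokines in δ-cells gave 1 gene (Iigp1) with no filter. With total UMIs, 3 genes were higher in untreated δ-cells and 3 in untreated mesenchymal cells than in β-cells, and DESeq2 gave 3 for mesenchymal cells, among them Tgtp2 (log2 5.31), which had no UMI in either untreated group, so that this is no difference of levels. For the effect of NMMA in α-cells against macrophages and against endothelial cells, tests added after the data had been seen, DESeq2 gave 1 and 2 genes.

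As single libraries were left out, the number of genes called ran from 2 to 8 for NMMA on top of cytokines in α-cells, from 2 to 5 for α-cells against macrophages and from 4 to 7 for α-cells against endothelial cells. For the untreated level against β-cells it ran from 1 to 3 in α-cells, 1 to 5 in macrophages, 2 to 4 in endothelial cells and 0 to 1 in mesenchymal cells, and for the change with cytokines from 1 to 3, 0 to 2 and 1 to 2 in α-cells, macrophages and endothelial cells. The log2 value of F830016B08Rik for NMMA on top of cytokines ran from -1.61 to 2.90 in α-cells, from -2.67 to 3.45 for α-cells against macrophages and from -1.18 to 3.37 for α-cells against endothelial cells, with the ends set by leaving out one or the other cytokine library. That of Gm4951 in untreated macrophages ran from -1.75 to 7.945 and that of Irgm2 in untreated endothelial cells from -0.0736 to 2.17, with the low ends without untreated replicate 2. The cause was not tested. Depth limits the small classes, in which sums of 13 to 26 mesenchymal cells, 14 to 34 endothelial cells or 11 δ-cells stand behind a value with cytokines.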
